A study of Mus musculus with 6 samples.

Results

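The interferon response genes described here are 36 genes that cells switch on after interferon, found by symbol among the 19069 genes listed on at least 1 plate of the series. All 36 were listed on all plates, as were 13207 genes in total. The list was divided by the interferon with which each gene is mainly associated, into 22 type I-like genes (such as *Ifit1*, *Isg15* and *Rsad2*) and 14 gamma-like genes (such as *Gbp2*, *Igtp* and *Psmb8*).

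Type I interferons are released by cells that sense viral or displaced nucleic acid, and bind the receptor chains encoded by *Ifnar1* and *Ifnar2*. Jak kinases then activate STAT factors, which join IRF9 and bind the interferon-stimulated response element (ISRE) in promoters of antiviral genes. Interferon gamma comes mainly from T cells and natural killer cells, binds the receptor encoded by *Ifngr1* and *Ifngr2*, and acts through STAT dimers on the gamma-activated site (GAS), which raises guanylate-binding proteins, immunity-related GTPases and the machinery that loads peptides on MHC class I.

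Single cells were sorted from colon tumors that had been induced with azoxymethane and dextran sodium sulfate (AOM/DSS), gating on cells without Epcam, CD45 and CD31 to enrich cancer-associated fibroblasts (CAFs), and were measured by SORT-seq, a plate method that counts transcripts at their 3′ end. All 6 mice carried floxed *Zeb1* alleles, and were age-matched littermates. The 3 Zeb1Fib-Ctrl mice (numbered 1, 3 and 4 after their plates) lacked the Col6a1Cre transgene, and the 3 Zeb1Fib-deleted mice (2, 5 and 6) carried it, which removes *Zeb1* in the fibroblasts that express *Col6a1* and not in other cells. Each mouse filled 1 plate of 384 wells. A mouse therefore cannot be told apart from its plate, and the treatment field of the labels reads None for every sample. The samples thus hold no animals without tumors.

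The totals per plate lay between 1575730 and 3699060 transcripts, without the spike-in RNA, which took 7.85% to 18.6%. Of 2304 wells, 1233 had 100 to 6000 genes and under 10% mitochondrial transcripts, 583 of them from Zeb1Fib-Ctrl mice. By marker genes, 604 were fibroblast-gated, 443 neutrophil-gated and 75 pericyte-gated, although the sort had removed CD45-positive cells. Fibroblast-gated wells numbered 189, 21 and 65 in mice 1, 3 and 4, and 171, 142 and 16 in mice 2, 5 and 6. The plate of mouse 3 stood apart, with 189 neutrophil-gated wells of 221, and mouse 6 was sequenced on another flow cell than the other 5, so run and mouse cannot be told apart there. The well barcodes were the same 384 on all plates, in separate libraries. Fibroblast markers took 3.66% to 5.28% of the transcripts in fibroblast-gated wells, against 0.114% to 0.566% in neutrophil-gated wells. Neutrophil markers took 0.0127% to 0.0491% in fibroblast-gated wells (highest in mouse 3), against 6.57% to 11.9% in neutrophil-gated wells. Values below are counts per 1000000 transcripts of the summed wells of a mouse (CPM). Each transcript is counted once at its 3′ end, so that the counts do not scale with gene length.

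*Zeb1* was read first as a check of the labels. In fibroblast-gated wells it lay at 108, 106 and 91.6 CPM in Zeb1Fib-Ctrl mice 1, 3 and 4, and at 57.8, 58.9 and 61.4 CPM in Zeb1Fib-deleted mice 2, 5 and 6. The genotypes did not overlap (102 ± 8.91 against 59.4 ± 1.84 CPM, SD, n = 3 each), in the direction of the labels. The log2 fold change was -0.77 (SE 0.21, adjusted p = 1.0 by the quasi-likelihood test of edgeR, Benjamini-Hochberg over 9205 genes). An exact two-sided permutation test gave p = 0.10, the smallest that 3 against 3 mice allow. Which exons the floxed allele removes is not given in the sources used here, and reads of the 3′ end would miss a deletion elsewhere in the transcript.

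The promoters of the members were searched for the motifs of both routes. RefSeq promoters (GRCm38.p6, 250 bases before to 50 after the gene start) were found for 29 of the 36 genes, and were read on both strands for the ISRE core GAAANNGAAA and the GAS TTCNNNGAA. The ISRE core was in 16 of the 29 (55.2%), against 3.99% of 27025 genes, and the GAS in 9 (31.0%), against 9.55%. Both motifs were in 5 members (17.2%, against 0.614%), and matches of both overlapped in 1, *Bst2*. The GAS was in 6 of 12 gamma-like and in 3 of 17 type I-like promoters, and the ISRE core in 7 of 12 and 9 of 17. A match describes the letters and is no evidence of binding. Stretches of 40 bases are shown for 3 type I-like genes, of which *Ifit1* and *Rsad2* differed between cell classes and *Isg15* is a well-known gene of the response, and for 3 gamma-like genes that differed between fibroblast subtypes, with the motif matches in capitals.
*Ifit1* (chr19:34640779-34640818, + strand): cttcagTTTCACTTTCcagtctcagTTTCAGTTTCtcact
*Isg15* (chr4:156200866-156200905, - strand): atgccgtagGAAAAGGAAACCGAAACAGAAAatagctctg
*Rsad2* (chr12:26456548-26456587, - strand): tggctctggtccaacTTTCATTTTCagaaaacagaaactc
*Gbp7* (chr3:142530268-142530307, + strand): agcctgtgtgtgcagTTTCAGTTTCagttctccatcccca
*Igtp* (chr11:58199507-58199546, + strand): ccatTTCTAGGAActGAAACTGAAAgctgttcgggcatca
*Irgm2* (chr11:58214898-58214937, + strand): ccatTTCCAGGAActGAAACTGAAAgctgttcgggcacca
In *Igtp* and *Irgm2*, which encode related GTPases and lie on the same chromosome, a GAS stands directly before an ISRE core in both stretches. The *Gbp7* stretch and the 3 type I-like stretches hold 1 to 3 ISRE cores and no GAS. Outside its stretch the searched *Gbp7* promoter held 2 GAS matches, whereas the promoters of the 3 type I-like genes held none.

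With all counts used, gamma-like transcripts outnumbered type I-like ones in the fibroblasts of every mouse, and the reverse held in the neutrophils of every mouse. In fibroblast-gated wells the 14 gamma-like genes together took 1244, 2759 and 958 CPM in Zeb1Fib-Ctrl mice 1, 3 and 4, and 1470, 1462 and 645 CPM in Zeb1Fib-deleted mice 2, 5 and 6. The 22 type I-like genes took 490, 1018 and 624 CPM in mice 1, 3 and 4, and 521, 509 and 545 CPM in mice 2, 5 and 6. Mouse 3 was highest for both lists, and the ratio of gamma-like to type I-like transcripts ran from 1.18 (mouse 6) to 2.87 (mouse 5). The gene *Tapbp* alone held 246 of the 645 gamma-like CPM in mouse 6 and 324 of the 958 in mouse 4. In mouse 6 the order of the lists rested on this gene, and in mouse 4 nearly so. In neutrophil-gated wells the type I-like genes took 1653 to 4452 CPM, which was 3.13 to 7.13 times the level in the fibroblasts of the same mouse. The gamma-like sum differed little, at 0.878 to 1.30 times, although single gamma-like genes differed in both directions. The order in neutrophils of mouse 1 rested on 66 type I-like against 48 gamma-like counts. In wells thinned to 1000 barcodes that order turned, at 1750 against 1937.5 CPM. Thinned wells of mouse 3 held 3800 CPM of gamma-like transcripts in fibroblasts and 2378 CPM in neutrophils. Pericyte-gated wells held 842 to 2635 CPM of gamma-like and 320 to 1541 CPM of type I-like transcripts, although 3 of the mice had 4 such wells each.

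**Figure D1:**
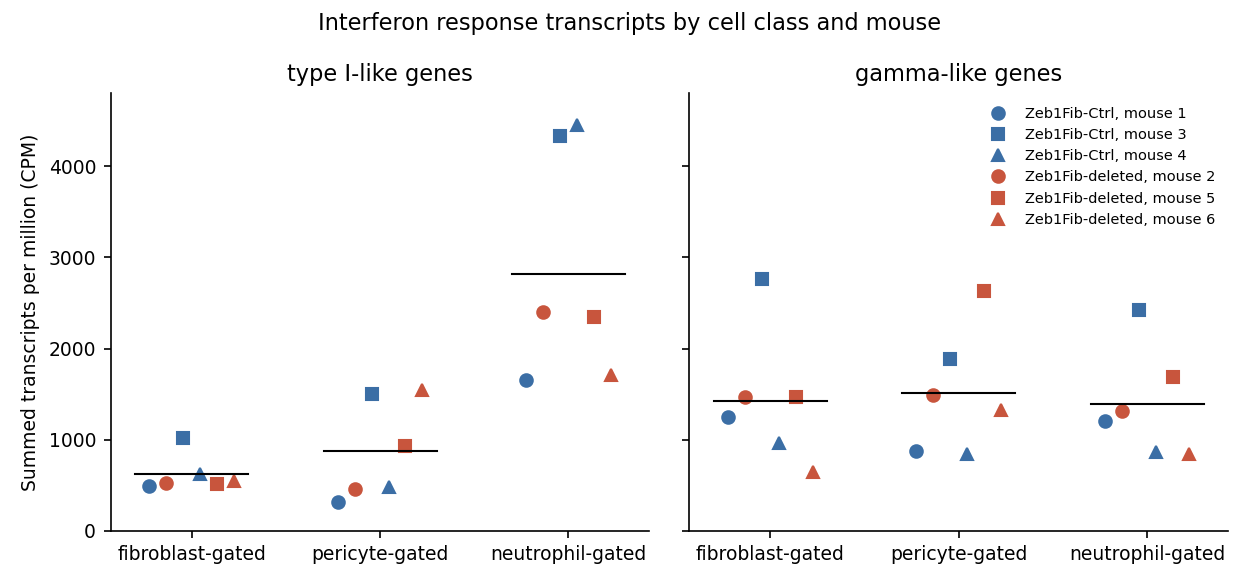
Summed level of the type I-like and gamma-like genes (CPM) in fibroblast-, neutrophil- and pericyte-gated wells, with 1 point per mouse and the mean as a line. The type I-like level of every mouse is higher in neutrophils (1653 to 4452 CPM) than in fibroblasts (490 to 1018 CPM), and mouse 3 is the highest in fibroblasts for both lists.

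The 10 most abundant members in fibroblasts were led by *Tapbp*, which encodes the MHC class I loading factor tapasin, at 287, 418 and 324 CPM in mice 1, 3 and 4 and 297, 342 and 246 CPM in mice 2, 5 and 6. It was also the most even of the 10 across mice. *Irf1*, the transcription factor that relays interferon gamma, lay at 176, 466 and 86.4 CPM in mice 1, 3 and 4 and at 279, 505 and 72.9 CPM in mice 2, 5 and 6. Its level differed more within a genotype than between the genotypes.

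*Iigp1*, a GTPase that attacks the vacuoles of intracellular parasites, came next with 210, 529 and 150 CPM in Zeb1Fib-Ctrl and 222, 77.8 and 42.2 CPM in Zeb1Fib-deleted mice. The genes of the guanylate-binding proteins of the same defense, *Gbp2* and *Gbp7*, lay at 119, 220 and 34.5 against 122, 112 and 23.0 CPM, and at 66.6, 202 and 49.1 against 79.3, 34.6 and 69.1 CPM. The genotypes overlapped for all 3, and mouse 3 was the highest in each. *Irgm2* (43.0, 154 and 34.5 against 46.5, 68.3 and 34.5 CPM) and *Igtp* (33.7, 154 and 33.2 against 57.9, 60.5 and 19.2 CPM), immunity-related GTPases, showed the same order of mouse 3 above all others.

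The immunoproteasome subunits that cut peptides for MHC class I were represented by *Psmb8*, with 105, 158 and 91.6 against 139, 99.0 and 53.7 CPM, and *Psmb10*, with 87.4, 114 and 75.7 against 95.2, 64.4 and 46.1 CPM. *Oasl2*, of the oligoadenylate synthetase family, was the only type I-like gene among the 10 and lay at 43.0, 132 and 55.8 CPM in Zeb1Fib-Ctrl mice and 50.7, 30.6 and 38.4 CPM in Zeb1Fib-deleted mice. Guanylate-binding, immunity-related GTPase and *Ifit* genes form families of similar sequence, and how the authors' counting treated reads that map to several members is not given in the sources used here, so their single levels are uncertain.

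**Figure D2:**
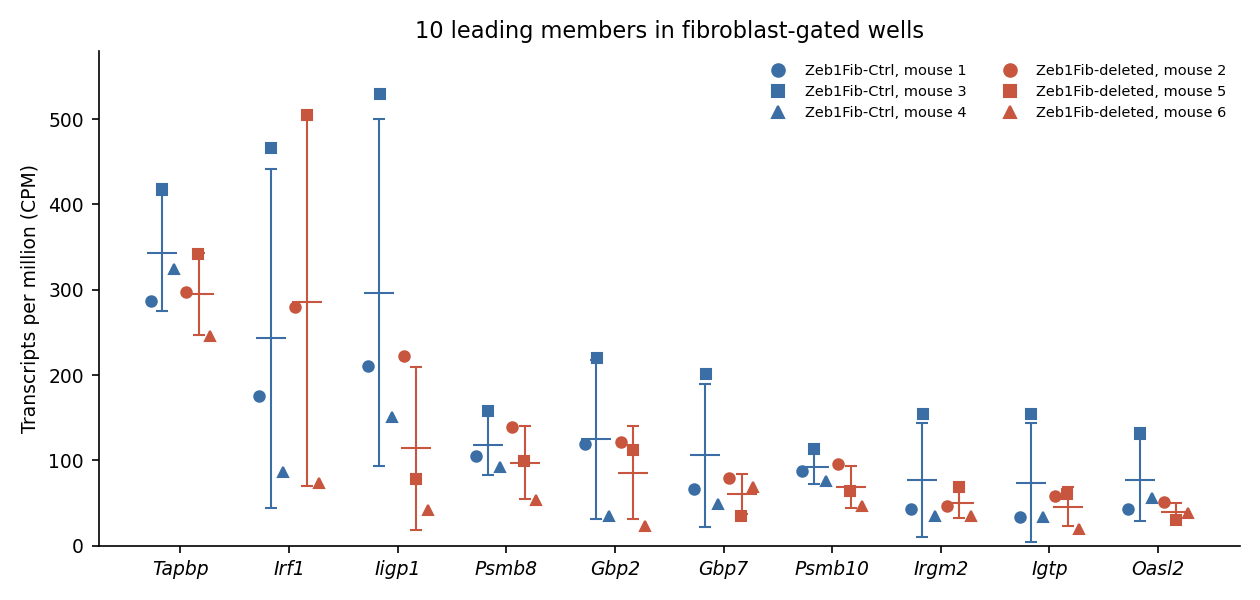
Level (CPM) of the 10 members with the highest mean in fibroblast-gated wells, with 1 point per mouse and the mean ± SD of each genotype (n = 3). The genotypes overlap in all 10 members, and mouse 3 is the highest in 9 of them, *Irf1* being highest in mouse 5.

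The other members were lower in fibroblasts. Of the signalling genes, *Stat2* lay at 39.5 to 62.4 CPM, *Irf9* at 39.5 to 76.9 CPM and *Irf7* at 17.3 to 51.3 CPM across the 6 mice. The RNA sensor genes *Ddx58* and *Ifih1* lay at 18.1 to 76.9 and at 7.68 to 28.5 CPM, and *Dhx58* at 0 to 7.07 CPM. The antiviral genes *Ifit1*, *Ifit2* and *Ifit3* ranged from 3.84 to 110, from 11.3 to 62.3 and from 4.19 to 36.6 CPM. *Isg15*, the ubiquitin-like modifier, stayed at 2.66 to 22.0 CPM and *Rsad2*, which encodes viperin, at 0 to 7.33 CPM, both far below their levels in neutrophils. In the remaining genes *Rtp4*, *Parp14*, *Xaf1*, *Ifi35*, *Zbp1*, *Bst2*, *Trim30a*, *Usp18*, *Cmpk2*, *Ifi44*, *Gbp3*, *Irgm1*, *Psmb9*, *Gbp5* and *Nlrc5* the means over the 6 mice lay between 5.58 and 57.9 CPM.

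No member passed the test between the genotypes in fibroblasts. Among the 30 members tested by edgeR's quasi-likelihood test 0 had an adjusted p under 0.05, as had 0 of all 9205 genes tested (0.0%), and the members also showed none at an unadjusted p under 0.05, against 128 of all genes. DESeq2 called 5 genes, 0 of them members. *Isg15*, *Rsad2*, *Dhx58*, *Ifi44*, *Gbp5* and *Nlrc5* were too low to be tested. In 25 of the 30 the fold change pointed to lower levels in Zeb1Fib-deleted mice, with a median log2 fold change of -0.34, against 0.01 over all genes, and without mouse 3 that median was -0.08. In all 36, mouse 3 was the highest of the 6 mice in 25, and among the 30 tested in 22, whereas 21.7% of all tested genes were highest in that mouse. The list totals followed: the mean was 1653 ± 968 CPM against 1192 ± 474 CPM for the gamma-like genes and 711 ± 275 against 525 ± 18.4 CPM for the type I-like genes (SD, n = 3). Without mouse 3 the difference was 91.6 CPM for gamma-like and -32.1 CPM for type I-like genes, deleted minus Ctrl. The direction of the gamma-like total thus rested on mouse 3, while the type I-like total kept its direction with a smaller difference.

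*Zbp1*, which encodes a sensor of Z-form nucleic acids, was the single member whose mice did not overlap between the genotypes, with 31.5, 51.3 and 30.5 CPM in Zeb1Fib-Ctrl mice and 28.5, 27.5 and 11.5 CPM in Zeb1Fib-deleted mice. Non-overlap occurred in 5.93% of all genes tested (Zeb1Fib-Ctrl higher in 3.02%, Zeb1Fib-deleted higher in 2.91%), so that 1 of 36 is no more than the background. Its log2 fold change was -0.50 (SE 0.36, adjusted p = 1.0, edgeR), and the exact two-sided permutation test over the 3 against 3 mice gave p = 0.10.

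Of the 67 other genes of the pathway, 47 were tested in fibroblasts and 0 were called. The chemokine gene *Cxcl10*, which draws T cells, lay at 175, 1048 and 18.6 against 143, 206 and 0 CPM. It ranged from 0 CPM in mouse 6 to 1048 CPM in mouse 3. The receptor genes *Ifngr1* (134 to 286 CPM) and *Ifnar1* (62.1 to 125 CPM), the kinase gene *Jak1* (255 to 423 CPM) and the inhibitor gene *Socs1* (7.68 to 95.1 CPM) were present in the fibroblasts of every mouse. The ligand genes *Ifnb1*, *Ifng*, *Ifnl2* and *Ifnl3* were not analysed here.

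Wells of 1 mouse differed widely. In each of the 6 mice the 10% of fibroblast-gated wells with the most member transcripts held 25.8% to 43.3% of them. These wells were ranked by counts, and depth, 124 to 40615 transcripts per fibroblast-gated well, enters this share. As a share of its own transcripts, the highest well, in mouse 3, reached 15042 CPM of gamma-like genes. Within a mouse the 2 lists rose and fell together across wells, with Pearson correlations of 0.47 to 0.60 in the 5 mice that had at least 20 fibroblast-gated wells (21 to 189 each), a description of wells that share a library and differ in depth. In wells thinned to 1000 barcodes the correlations were 0.11 to 0.58. Outside the list, the genes that went most with the summed members over wells, among 6804 genes in the same 5 mice, were *B2m* (mean r of 0.50) and *H2-D1* (0.46), the light and a heavy chain of MHC class I, *Ifi47* (0.43), *Ddx5* (0.42), *Cald1* (0.41), *Gpx3* (0.41), *AW112010* (0.40) and *Samhd1* (0.39).

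Which members set fibroblasts apart from neutrophils was asked within the same 6 mice, with the mouse as a block. Of the 9 type I-like genes tested, 8 were lower in fibroblasts, and of the 10 gamma-like genes tested 2 were lower and 2 higher. The other 13 type I-like genes were below the filter. Among these, *Bst2* and *Ifi35* were higher in fibroblasts in 6 of 6 mice, and *Isg15* was lower in 6 of 6. *Rsad2*, *Trim30a* and *Irf7*, low in fibroblasts, were kept by the filter through their levels in neutrophils. *Iigp1* and *Psmb10*, low in neutrophils, were kept through their levels in fibroblasts. These counts therefore do not describe the whole lists. Of the 19 members tested, 10 were lower in fibroblasts (52.6%) and 2 were higher (10.5%), against 27.9% lower and 41.1% higher among all 4132 genes tested by edgeR, and in either direction 63.2% of members were called against 69.0% of all genes. The median log2 fold change over all genes was 0.47, and it was 1.01 under DESeq2's size factors, which called 10 members lower and 3 higher, with 949 of all genes lower and 2181 higher, where edgeR had 1153 and 1697. The calls were made against 0 and not against that shift.

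*Rsad2* showed the widest gap, at 150, 628 and 382 CPM in neutrophils of mice 1, 3 and 4 and 458, 331 and 149 CPM in mice 2, 5 and 6, against 0 to 7.33 CPM in fibroblasts, which rest on 15 counts in all. The log2 fold change was -7.45 (SE 0.48, adjusted p = 1.13e-18, edgeR). *Trim30a*, which encodes a regulator of inflammatory signalling, followed at 275, 733 and 859 CPM and 485, 495 and 428 CPM in neutrophils, against 15.5 to 25.1 CPM in fibroblasts (log2 fold change -4.94, SE 0.37, adjusted p = 1.87e-16). No mouse overlapped between the classes in either gene.

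*Oasl2* (346 to 890 CPM in neutrophils, log2 fold change -3.78, SE 0.33), *Rtp4* (106 to 636 CPM, -2.89, SE 0.35) and *Irf7* (75.1 to 286 CPM, -2.76, SE 0.36), which encodes the amplifier of type I interferon production, were lower in the fibroblasts of each of the 6 mice. *Ifit1* varied more, from 0 CPM in the 19 neutrophil-gated wells of mouse 1 to 350 CPM in mouse 4, and was lower in fibroblasts in 5 of 6 mice (log2 fold change -2.23, SE 0.42, adjusted p = 9.12e-06). *Parp14* (-1.63, SE 0.37), *Irf9* (-1.55, SE 0.35), *Gbp2* (-1.42, SE 0.34) and *Irf1* (-1.34, SE 0.34) were lower by less, and lost the call when no filter on low genes was used (log2 fold changes of -0.89, -0.80, -0.64 and -0.59). *Irf1* was lower in fibroblasts in 5 of 6 mice, and the other 3 genes in 6 of 6.

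*Iigp1* and *Psmb10* were the 2 members called higher in fibroblasts with the filter on low genes. Without that filter *Bst2*, *Ifi35*, *Gbp3*, *Irgm2* and *Psmb8* were also called higher, and *Isg15*, *Dhx58*, *Psmb9* and *Nlrc5* also lower. In that fit 5973 of all 17073 genes were called higher and 1246 lower, so the split of the members depended on the filter. *Iigp1* lay at 42.2 to 529 CPM in fibroblasts against 0 to 25 CPM in neutrophils, where it rests on 8 counts (log2 fold change 3.77, SE 0.55, adjusted p = 6.50e-08), and *Psmb10* at 46.1 to 114 against 0 to 23.6 CPM, on 5 counts (3.03, SE 0.62, adjusted p = 3.27e-05). All 6 mice were higher in fibroblasts for both. The remaining 7 tested members, *Stat2*, *Gbp7*, *Igtp*, *Irgm1*, *Irgm2*, *Psmb8* and *Tapbp*, did not pass the test, with log2 fold changes of -0.45 to 0.48. Of the members too low to be tested, named after their values were seen, *Isg15* lay at 33.6 to 382 CPM in neutrophils against 2.66 to 22.0 CPM in fibroblasts, with no overlap. *Bst2*, which encodes the virus-tethering protein tetherin, and *Ifi35* ran the other way without overlap, at 0 to 19.8 against 23.0 to 36.9 CPM and at 0 to 24.0 against 27.5 to 54.9 CPM. Neutrophil-gated wells held a median of 1442 transcripts against 11475 in fibroblast-gated wells, and 17 members were below the filter.

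**Figure D3:**
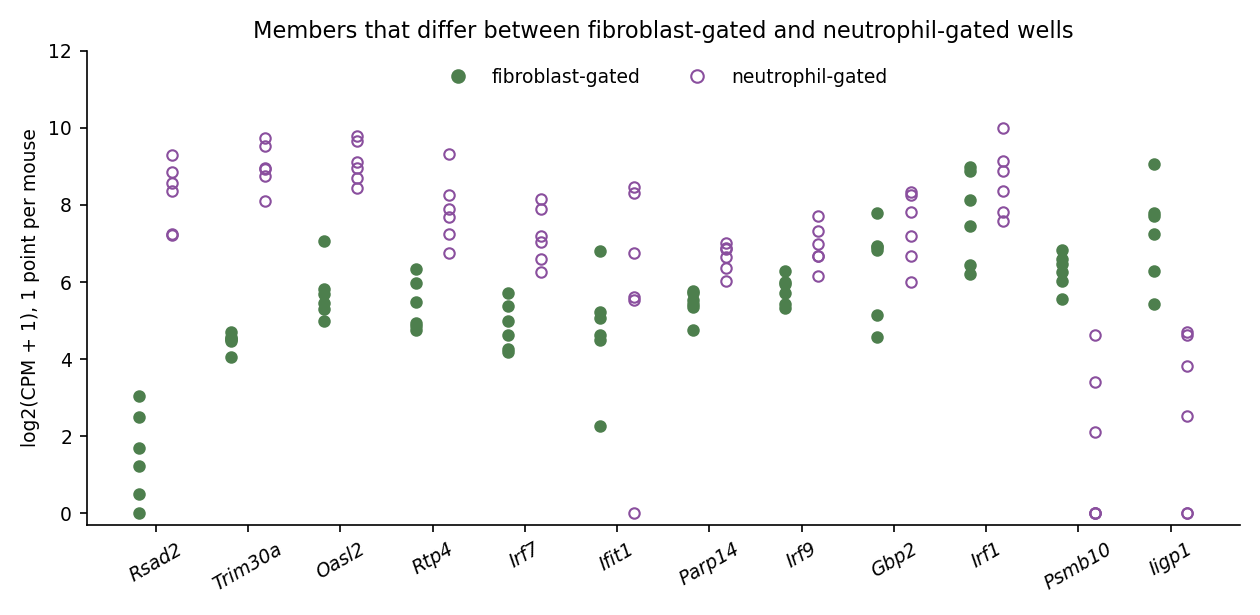
Level, as log2(CPM + 1), of the 12 members called between the classes, with 1 point per mouse for fibroblast-gated and neutrophil-gated wells. The 10 members from *Rsad2* (-7.45) to *Irf1* (-1.34) are lower in fibroblasts and *Iigp1* and *Psmb10* higher.

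Of 33 other pathway genes tested, 21 were lower in fibroblasts (63.6%, against 27.9% of all genes) and 2 higher (6.06%, against 41.1%). In either direction 69.7% were called, a share at the background of 69.0%. The receptor genes *Ifnar1* (log2 fold change -2.51), *Il10rb* (-2.16), *Ifngr2* (-1.97) and *Ifnar2* (-1.12) were lower, whereas *Ifngr1* (-0.17, adjusted p = 0.65, edgeR) did not pass. The kinase genes *Jak2* (-2.91) and *Jak1* (-1.10) and the factor gene *Irf5* (-3.49) were lower. Among interferon-stimulated genes the oligoadenylate synthetase genes *Oas3* (-7.33, on 13 counts in fibroblasts) and *Oas2* (-5.59) fell furthest, followed by *Sp110* (-3.26), *Samd9l* (-2.79), *Isg20* (-2.69), *Trim25* (-2.18), *Eif2ak2* (-1.63), *Tap1* (-1.56), *Ifi204* (-1.53), *Cxcl10* (-1.05) and *Adar* (-0.97). The kinase gene *Tbk1* (-2.42) and the inhibitor genes *Ptpn2* (-1.13) and *Pias1* (-1.06) were lower too. *Lgals3bp* (1.81) and *Tmem173* (1.06), which encodes the adaptor STING, were higher in fibroblasts.

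Between the genotypes, neutrophils were compared in the same way. In them 12 members were tested and 0 called, as were 0 of 1399 genes (0.0%) by edgeR, with 71 genes at an unadjusted p under 0.05, 2 of them members, *Ifit1* (log2 fold change -1.91, adjusted p = 0.79) and *Oasl2* (-0.76, adjusted p = 0.80). DESeq2 called 1 gene, 0 of them members. The fold change was negative in 11 of the 12, with a median of -0.63 against -0.01 over all genes. The mice did not overlap between the genotypes in 4 of the 36 members, *Irf9*, *Stat2*, *Zbp1* and *Nlrc5*, each higher in Zeb1Fib-Ctrl mice. Non-overlap occurred in 7.86% of all tested genes, with Zeb1Fib-Ctrl higher in 4.43% and Zeb1Fib-deleted higher in 3.43%. Among the 12 tested members only *Irf9* showed it, a share near that background. *Stat2*, *Zbp1* and *Nlrc5* were below the filter, so the background does not cover them. *Stat2* lay at 50.1, 69.4 and 191 CPM in mice 1, 3 and 4 against 36.6, 35.4 and 4.81 CPM in mice 2, 5 and 6. *Zbp1* lay at 100.2, 122 and 63.6 against 27.5, 11.8 and 28.8 CPM, and *Nlrc5* at 75.1, 29.7 and 127 against 0, 23.6 and 24.0 CPM. These levels rest on few counts, 23 to 53 per gene over the 6 mice. *Irf9* was the only one of the 4 that was tested, at 125, 208 and 159 CPM against 101, 70.8 and 101 CPM (log2 fold change -0.91, SE 0.42, adjusted p = 0.92). *Cxcl10* had a log2 fold change of -2.31 (SE 0.65, adjusted p = 0.62, edgeR).

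Few members passed the test between fibroblasts and pericytes. In the 3 mice with at least 5 pericyte-gated wells (1, 2 and 4), 2 of 27 tested members were called, both higher in fibroblasts (7.41%), against 16.1% of 7938 genes in either direction (8.54% higher, 7.57% lower). *Tapbp* lay at 155, 183 and 154 CPM in pericytes of mice 1, 2 and 4 and at 287, 297 and 324 CPM in fibroblasts (log2 fold change 0.98, SE 0.26, adjusted p = 0.014). *Ifit1* lay at 32.9, 21.8 and 23.9 CPM in fibroblasts and at 0, 3.29 and 0 CPM in pericytes, 2 counts in all, a ratio of 11.2 (exact 95% interval 3.05 to 93.7, counting error only; adjusted p = 0.0057, edgeR). This did not extend to the other mice, where 4 pericyte-gated wells each held 42.8, 297 and 454 CPM of *Ifit1* in mice 3, 5 and 6, and with the mitochondrial filter set on mt- genes alone, which brought in all 6 mice, its log2 fold change was -0.20 (adjusted p = 0.90). Without mouse 2 neither member was called, and without mouse 4 *Tapbp* was not.

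Among the other pathway genes, 6 of 44 were higher in fibroblasts than in pericytes (13.6%, against 8.54% of all genes). Lower were 3 (6.82%, against 7.57%), a share near the background. *Ifngr1* (log2 fold change 2.39), *Ly6e* (2.23) and *Gbp6* (1.48) were higher, as were 3 genes that pericytes nearly lacked. *Ifi27l2a* had 3 counts in pericytes, a ratio of 90.4 (exact 95% interval 30.9 to 439), and *Gbp4* had 2, a ratio of 16.9 (4.61 to 140). *Gbp8* had 0 counts there and was at least 6.35-fold higher in fibroblasts, against a floor of 3 counts over the group. *Ifi203* (-2.21), *Ifngr2* (-1.71) and *Jak2* (-1.26) were lower. The gamma receptor chains thus moved in opposite directions, *Ifngr1* higher and *Ifngr2* lower in fibroblasts.

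The members also differed between subtypes of fibroblasts. Wells with iCAF markers (inflammatory CAFs, such as *Pi16* and *Clec3b*) were compared with wells of telocyte markers (subepithelial signalling fibroblasts, such as *Wnt5a* and *Bmp7*), in 5 mice with at least 5 wells of each, the mouse as a block. Mouse 6 was left out, with 3 iCAF-gated wells. Of the members tested, most gamma-like genes were lower in iCAF-gated wells and most type I-like genes did not pass. Of 24 members tested, 8 were lower (33.3%) and 1 higher (4.17%), against 8.22% lower and 9.3% higher among 6181 genes tested by edgeR. Among gamma-like genes 7 of 11 were lower, and the log2 fold change was negative in all 11, with a median of -1.42 against -0.04 over all genes. Of 13 type I-like genes 1 was lower and 1 higher. The other 12 members were below the filter. Genes low in iCAF-gated wells, such as *Igtp* and *Zbp1*, were kept by the filter through their levels in telocyte-gated wells. These counts therefore do not describe the whole lists.

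The summed gamma-like level was 661, 1192 and 241 CPM in iCAF-gated wells of mice 1, 3 and 4 and 2082, 3653 and 1164 CPM in telocyte-gated wells of the same mice. In Zeb1Fib-deleted mouse 2 it was 596 against 1928 CPM, and in mouse 5 it was 1556 against 1518 CPM. Mouse 5 thus did not share the difference in the sum, where *Irf1* (624 CPM in iCAF-gated wells against 185) and *Gbp2* (115 against 20.6) ran the other way. Mouse 6, left out of the test, did not share it either, at 858 CPM in 3 iCAF-gated wells against 647 CPM in 7 telocyte-gated wells. Mouse 5 held 75 of the 177 iCAF-gated wells compared and 9 telocyte-gated wells, and mouse 4 held 5 iCAF-gated wells.

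*Iigp1* led, with 46.7, 100 and 0 CPM in iCAF-gated wells of mice 1, 3 and 4 and 21.9 and 56.8 CPM in mice 2 and 5, against 486, 853 and 221 CPM and 384 and 206 CPM in telocyte-gated wells. It was lower in 5 of 5 mice, with a log2 fold change of -3.02 (SE 0.35, adjusted p = 2.32e-05, edgeR). *Igtp* (15.6, 43.1 and 0 with 9.73 and 40.4 CPM, against 56.8, 152 and 46.1 with 90.7 and 151 CPM) was lower in 5 of 5 mice as well (log2 fold change -2.03, SE 0.33, adjusted p = 4.22e-04).

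Next came *Gbp7* (log2 fold change -1.69, SE 0.28, adjusted p = 5.69e-04), at 14.2 to 129 CPM in iCAF-gated and 48.0 to 263 CPM in telocyte-gated wells. *Psmb8* lay at 38.3 to 86.1 against 88.2 to 200 CPM (-1.60, SE 0.27), and *Psmb10* at 42.5 to 71.8 against 82.3 to 150 CPM (-1.06, SE 0.26). *Irgm2* lay at 0 to 64.3 against 38.1 to 235 CPM (-1.48, SE 0.40). All 4 genes were lower in iCAF-gated wells of all 5 mice. *Gbp3* (0 to 86.1 against 20.6 to 159 CPM; -1.42, SE 0.39) was lower in 4 of 5. *Zbp1*, the type I-like gene that was lower, lay at 0 to 28.7 CPM against 30.1 to 73.1 CPM (-1.60, SE 0.40) and was lower in all 5 mice. The calls of *Irgm2* and *Gbp3* were lost without the mouse as a block (-1.20 and -1.48), with a gate of 5 markers (-0.90 and -1.41) and without mouse 2 (-1.29 and -1.25), and that of *Irgm2* also without mouse 3 (-1.22). The call of *Psmb10* was lost without mouse 1 (-0.89) or mouse 2 (-1.0), and *Zbp1* was below the filter without either of them and *Gbp3* without mouse 1. *Iigp1*, *Igtp*, *Gbp7* and *Psmb8* were called under all 11 alternatives.

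*Ifit1* went the other way, at 56.3, 187 and 14.2 CPM in iCAF-gated wells of mice 1, 3 and 4 and 36.5 and 62.8 CPM in mice 2 and 5, against 10.1, 41.4 and 22.1 CPM and 25.2 and 6.86 CPM in telocyte-gated wells. It was higher in 4 of 5 mice, with a log2 fold change of 1.66 (SE 0.41, adjusted p = 0.011, edgeR). Mouse 4 was the exception, with 1 count in 5 iCAF-gated wells. The call was lost without mouse 1 (1.30) and with a gate of 5 markers (1.53).

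**Figure D4:**
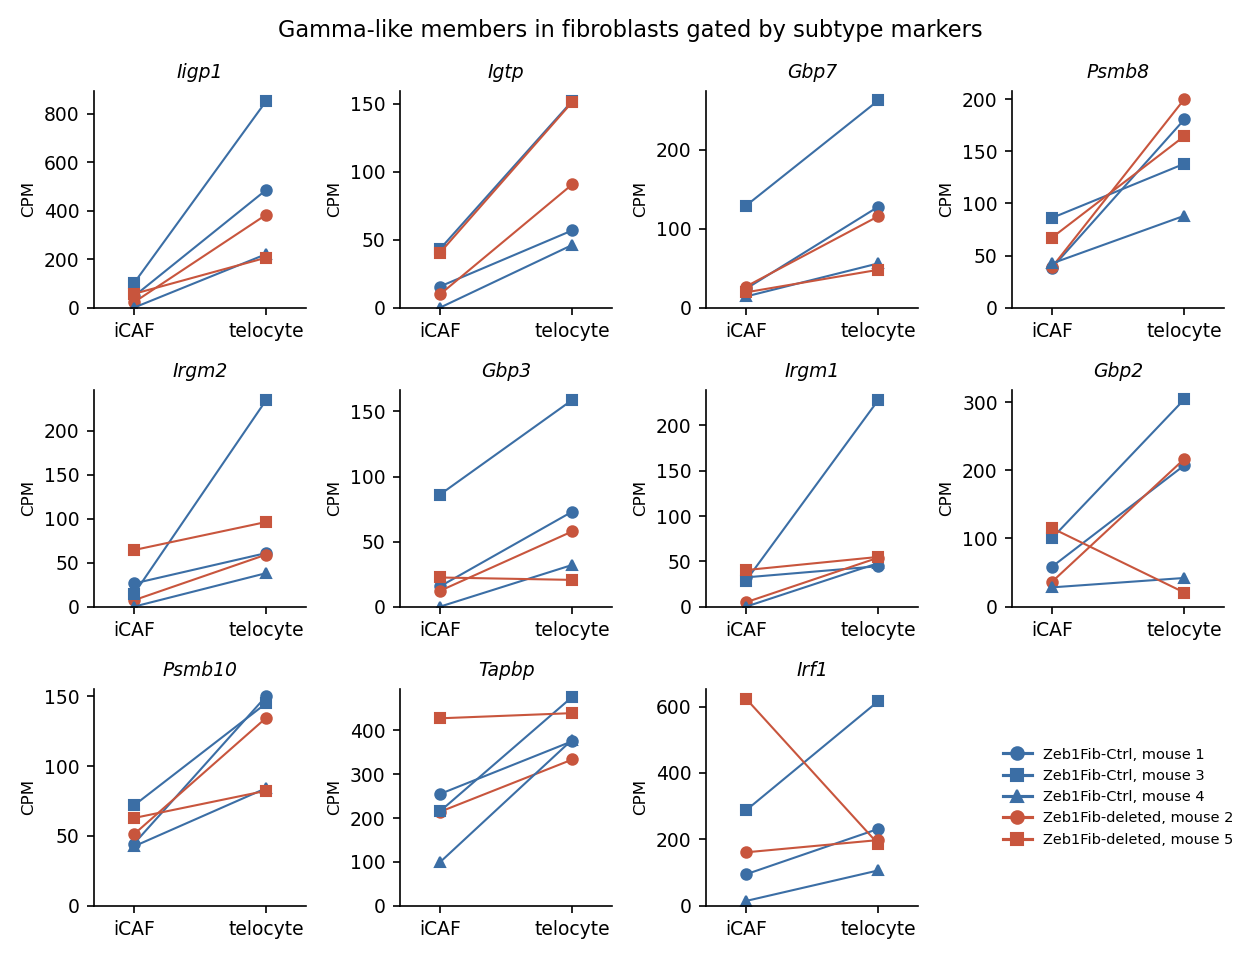
Level (CPM) of the 11 tested gamma-like members in iCAF-gated and telocyte-gated wells, with a line for each of the 5 mice. In most members the lines rise from iCAF to telocyte, and *Irf1* and *Gbp2* fall in mouse 5 (624 to 185 and 115 to 20.6 CPM).

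**Figure D5:**
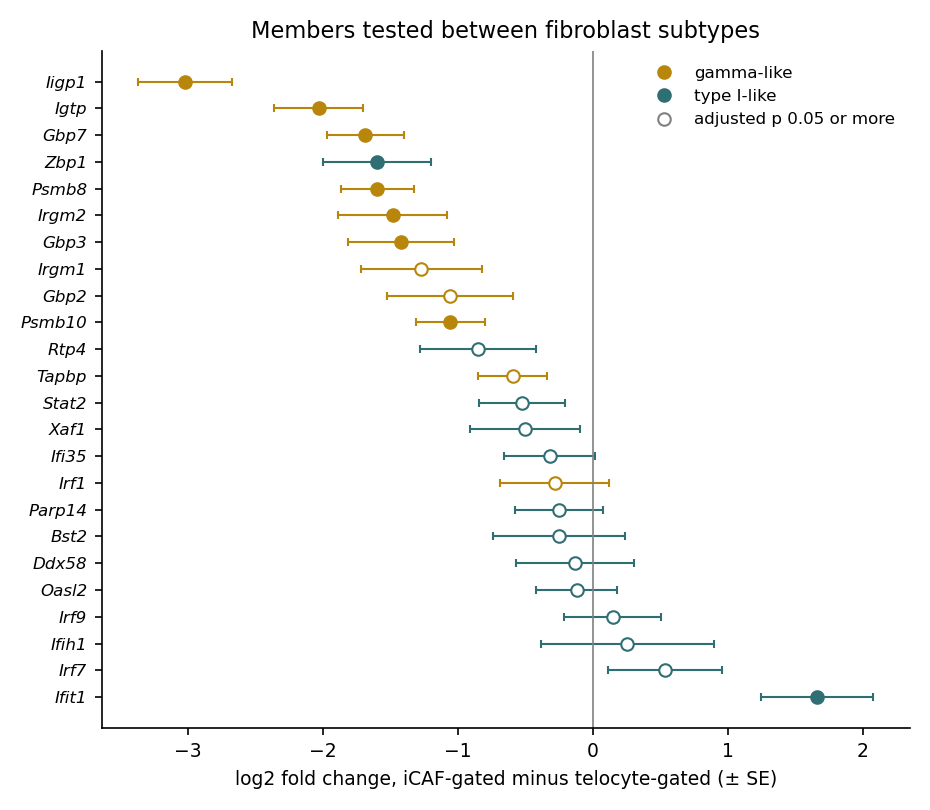
Log2 fold change, iCAF-gated minus telocyte-gated, of the 24 members tested, with its SE. Filled points have an adjusted p under 0.05: 8 members lie to the left, from *Iigp1* (-3.02) to *Psmb10* (-1.06), and *Ifit1* (1.66) to the right.

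Other genes of the pathway differed between the subtypes as well. Of 37 other pathway genes tested, 9 were lower in iCAF-gated wells (24.3%, against 8.22% of all genes). Higher were 4 (10.8%, against 9.3%), a share near the background. The receptor gene *Ifngr1* lay at 28.3 to 102 CPM in iCAF-gated and 250 to 373 CPM in telocyte-gated wells (log2 fold change -2.04, SE 0.24, adjusted p = 3.25e-05, edgeR). *Irf8* (-3.47), a factor gene best known in myeloid cells, *Gbp6* (-3.35), *Ifi47* (-3.16), the peptide transporter gene *Tap1* (-1.72), *Lgals3bp* (-1.18), *Tmem173* (-1.06) and *B2m* (-0.98) were lower as well. *Ifi204* was higher, with 296 counts in iCAF-gated against 2 in telocyte-gated wells, a ratio of 150 (exact 95% interval 41.0 to 1240). *Ifi27l2a* (3.0), *Socs1* (1.25), an inhibitor of the pathway, and *Jak1* (0.67) were higher too. *Ifnar1* (-0.54, adjusted p = 0.21) and *Cxcl10* (-1.63, adjusted p = 0.12) did not pass.

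Several other measures moved with the subtypes. The median was 10558 transcripts in iCAF-gated and 15060 in telocyte-gated wells. The mitochondrial share was 4.72% to 6.74% in iCAF-gated and 6.84% to 7.19% in telocyte-gated wells, higher in the latter in all 5 mice. Epithelial markers took 0.00073% to 0.0199% of transcripts in iCAF-gated and 0.00967% to 0.0776% in telocyte-gated wells, again higher in the latter in all 5 mice. The macrophage markers given here lay between 0 and 4.75 CPM in both, with *Adgre1* and *Ms4a7* at 0. All 10 neutrophil markers had counts in both, 162 CPM in iCAF-gated and 293 CPM in telocyte-gated wells, with *Mmp9* at 2.85 and 133 CPM. The difference in this sum rested on *Mmp9*. The markers *S100a8*, *S100a9*, *G0s2* and *Clec4d* were also higher in telocyte-gated wells. *Il1r2* (60.8 and 16.8 CPM) and *Hdc* ran the other way, and *Cxcr2*, *Retnlg* and *Csf3r* were nearly equal. Lymphocyte markers summed to 5.69 and 9.98 CPM. *Zeb1* itself was higher in iCAF-gated wells (log2 fold change 1.28, adjusted p = 0.0016, edgeR). The part of these measures in the difference between subtypes was not tested.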

How the data were processed

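SORT-seq (CEL-Seq2 chemistry) of 6 mice was analysed, 1 plate each. Reads were aligned by the authors with BWA to GRCm38. One deposited table per plate holds raw counts, the number of distinct molecular barcodes of a gene in a well. A second, also from the authors, holds estimated counts of transcripts, in which barcode numbers were corrected for molecules that by chance carry equal barcodes. The submitters' processing notes also list Cell Ranger 2.1.1. Neither table is normalized.

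Wells with 100 to 6000 genes and under 10% mitochondrial transcripts (37 genes) were kept, without spike-ins. No doublet caller was run. A well was gated to the marker list with the most detected markers, at least 3 and more than for every other list of 9. This gate was set after seeing the marker counts, and the members and lists were chosen with earlier results of these data known. Fibroblast-gated wells were divided into subtypes by the same rule over 3 lists.

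Estimated counts were summed over gated wells per mouse, rounded, and tested with edgeR 4.0.16 (R 4.3.3; TMM, filterByExpr, quasi-likelihood test, Benjamini-Hochberg over all genes tested, called at 0.05), which needed at least 5 wells per sum. Mouse was a block between classes of the same mice. DESeq2 1.42.0 was an alternative. On simulated counts the test recovered large known changes and missed most small ones between genotypes. Recovery of large genotype changes at the spread that the members show between mice was not tested. In fibroblasts of the 3 Zeb1Fib-Ctrl mice, *Iigp1* lay at 297 ± 204 CPM (SD). Samples were grouped by the labelled genotype, and replicates are mice. The members named are the 10 most abundant, those called and those without overlap between genotypes, with values per mouse or their range, and *Zeb1* is given as a check. Among other pathway genes, those called and a few fixed ones are named, and some items, 1 macrophage marker among them, are not reported here. Also named are the 8 genes best correlated with the members. Alternatives were barcode counts, no filter on low genes, mt- genes alone (24) in the mitochondrial filter, 5 markers per gate, exclusion of wells with over 1 *Ptprc* or *Epcam* transcript, thinning to 1000 barcodes, no replicate block, and leaving out each mouse. Python 3.11.15 with pandas 2.3.3, scipy 1.17.1 and matplotlib 3.10.9 was used. Summed counts cover counting error only where an interval is given.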

Additional observations from a re-analysis of the deposited data

Results flagged for a closer look

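There were 2 members whose class difference within a mouse went one way in every Zeb1Fib-Ctrl mouse and the other way in every Zeb1Fib-deleted mouse compared. For *Stat2*, fibroblasts minus neutrophils had a mean of -49.9 CPM in Zeb1Fib-Ctrl and 26.0 CPM in Zeb1Fib-deleted mice, on 37 counts in neutrophils. It was 1 of 19 members tested, and 15 of all 4132 genes (0.363%) showed opposite signs in this way. For *Ddx58*, iCAF-gated minus telocyte-gated wells had a mean of -30.6 CPM in 3 Zeb1Fib-Ctrl mice and 12.6 CPM in 2 Zeb1Fib-deleted mice (2 and 5), of which mouse 2 had 31.6 against 28.9 CPM. It was 1 of 24 members tested, and 213 of all 6181 genes (3.45%) did the same, so that this share is near the background. Neither difference between the genotypes was tested.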

How the results depend on the processing

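Of 280 alternative values for 25 named gene results, 261 kept direction and side of the threshold, 18 kept the direction but lost the call, and 1 turned, *Ifit1* between fibroblasts and pericytes (log2 fold change -0.20 with mt- genes alone in the mitochondrial filter). Between genotypes, DESeq2 called 5 genes in fibroblasts and 1 in neutrophils, and no filter on low genes gave 14 in neutrophils, with 0 members in each. Leaving out each mouse gave 0 calls in fibroblasts and 0 to 2 in neutrophils (2 without mouse 2). Between fibroblasts and neutrophils, 10 to 14 members were called over the leave-one-out fits. Between fibroblasts and pericytes, 4 members were called with no filter and 4 with no replicate block, and 0 to 2 when a mouse was left out (0 without mouse 2, 1 without mouse 4). Between subtypes, 14 were called with no filter, 7 with no replicate block, and 5 to 11 when a mouse was left out (5 without mouse 2, 6 without mouse 1). No other class comparison moved past 1.5 times without the replicate block, and between genotypes no paired analysis was possible because the mice share no replicate number. The genotype difference in fibroblasts, deleted minus Ctrl, ran over the left-out mice from -1040 to 59.4 CPM for all members, from -296 to -32.1 CPM for type I-like and from -809 to 91.6 CPM for gamma-like genes, and thinning gave 4 CPM for type I-like genes. The cause was not tested. Of the mice, 2 had 16 and 21 fibroblast-gated wells, which limits the counts behind low members.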

Other observations

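The 6 wells gated as lymphocytes, from mice 2, 3 and 5, held 1469 to 5021 CPM of gamma-like and 517 to 1143 CPM of type I-like transcripts, 2 wells per mouse. Epithelial-gated wells of 4 mice held 278 to 664 CPM of gamma-like and 157 to 789 CPM of type I-like transcripts. The wells with the markers of the other fibroblast subtype (*Cxcl13* and *Grem1* among them) held 706 to 2176 CPM of gamma-like and 508 to 914 CPM of type I-like transcripts across the 6 mice.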
